A study of Zea mays with 9 samples.

Results

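The effect of *dcl1-2* on gene expression was compared between 2 tissues of the maize shoot apex, the central zone (CZ) of the meristem and the P3 leaf primordium. For each gene model the log2 fold change of *dcl1-2* over wild type in the CZ was subtracted from that in P3, and this difference was tested. A gene model entered when its mean reached 1 RPM (the count scaled to the total count of its library) in at least 1 of the 4 groups. This left 23469 of the 45348 gene models in the count table. A further 43 microRNA (miRNA) precursor rows were fitted with them and are not described. The difference passed an adjusted p of 0.05 from edgeR in 550 gene models, 2.34% of those tested.

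All plants were 14-d-old seedlings of the inbred B73. There were 8 libraries in 4 groups, 2 for each genotype in either tissue. The mutants carried *dcl1-2* (dc1-2 in the labels) introgressed into B73, over 4 generations by the study's methods, and the wild types were siblings by the same source. Tissue was captured by laser microdissection, with at least 6 apices pooled for a replicate, and its RNA was linearly amplified before library construction. CZ libraries were single-end and P3 libraries paired-end, so tissue and library layout cannot be told apart in a comparison of levels, whereas the genotypes within a tissue share a layout. Total counts were 24753974 to 30327603 in the CZ and 8626824 to 10328582 in P3.

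DCL1 is the Dicer-like endonuclease that cuts plant miRNA precursors into mature miRNAs, which guide ARGONAUTE proteins to cleave or silence complementary transcripts. Many conserved targets encode transcription factors of meristem and leaf development. *dcl1-2* is a hypomorphic allele, and so lowers miRNA processing without removing it. The CZ holds the stem cells of the meristem, and a P3 primordium is a leaf a few plastochrons old in which adaxial and abaxial identities, veins and margins are being laid down.

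The targeted gene was measured first. *DCL1* (GRMZM2G040762, chr1:4607185-4614592 of B73 RefGen_v3) stood at 65.4 and 62.2 RPM in wild-type CZ and 84.0 and 91.7 RPM in *dcl1-2* CZ. In P3 it stood at 73.2 and 101 RPM in wild type against 141 and 136 RPM in *dcl1-2*. The *dcl1-2* libraries lay above wild type in either tissue, but only the P3 effect passed its test (adjusted p = 0.0207 in P3 and 0.237 in the CZ). The P3 effect exceeded the CZ effect by a log2 difference of 0.32 (SE 0.21, edgeR adjusted p = 0.490). The count does not show how much functional DCL1 the allele makes.

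The labelled tissues were compared with their markers. The 10 class I KNOX genes, which maintain the meristem, summed to 1250 to 1522 RPM in the 4 CZ libraries, against 83.2 to 102 RPM in the 4 P3 libraries. *kn1*, the defining member, lay at 970 to 1215 RPM in the CZ, against 2.07 to 5.13 RPM in P3. Conversely, 11 leaf primordium genes (8 YABBY genes with *ns1*, *mwp1* and *rs2*) summed to 873 to 1162 RPM in P3. In the CZ they summed to 53.3 and 59.6 RPM in the wild type, against 16.0 and 32.2 RPM in *dcl1-2*. The wild-type libraries differed by gene. *ns1*, *yab6*, *yab3*, *yab5* and *yab11* were at 1.48 to 4.29 RPM in library 1 and 0 to 0.113 RPM in library 2, against at most 0.0793 RPM in *dcl1-2*. *yab14* was at 5.34 and 29.3 RPM against 3.55 and 10.2 RPM. *yabby15* was alike in wild type, at 16.9 and 15.8 RPM against 3.19 and 10.2 RPM. The genotypes overlapped in *rs2*, at 11.7 and 5.41 RPM against 5.57 and 7.45 RPM. They also overlapped in *mwp1*, at 0.429 and 0 RPM against 0.0808 and 0.159 RPM. *yab9* was at 2.64 and 3.57 RPM against 2.59 and 2.46 RPM, and *yab10* at 1.95 and 5.45 RPM against 1.01 and 1.55 RPM. Epidermal markers (5 genes) summed to 437 and 439 RPM in wild-type P3 against 565 and 565 RPM in *dcl1-2* P3. In the CZ the epidermal sum was 256 to 279 RPM. Vascular markers (4 genes) summed to at most 1.04 RPM and photosynthetic leaf markers (9 genes) to at most 15.9 RPM in any library. None of the KNOX or leaf primordium markers passed the test of the difference. The fall of the leaf primordium sum in *dcl1-2* CZ touches the results below, and in bulk tissue fewer cells of a type and less RNA per cell cannot be told apart.

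**Figure D1:**
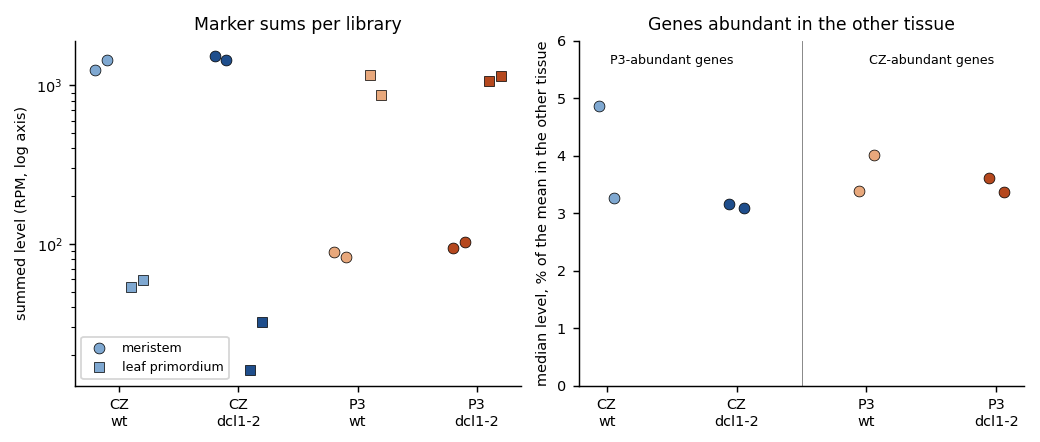
Left, summed level of meristem (circles) and leaf primordium (squares) markers in each library, in RPM on a log axis. Right, for 821 P3-abundant and 239 CZ-abundant genes not called for the difference, the median level in each library of the other tissue as a percentage of the mean in the tissue where they are abundant. Abundant genes had a mean of 10 RPM or more in that tissue and were chosen to lie under 10% of it in the other. Wild-type CZ library 1 has the highest level of P3-abundant genes, 4.86% against 3.08% to 3.26% in the other CZ libraries. With called genes included (982 P3-abundant genes, not drawn), the values are 5.10% and 3.45% in wild-type CZ and 2.79% and 2.69% in *dcl1-2* CZ.

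The miRNA targets were the group tied most directly to DCL1, and the sequences of those called for the difference are shown here because their pairing defines them. Mature miRNAs are written from the study's supplementary data with the seed, bases 2 to 8, in capitals. Target sites are those predicted in the same data, with capitals at bases that cannot form a Watson-Crick pair with the miRNA printed beside them. The *miR396* site is 1 base longer than its miRNA and carries no capitals.
miR166a: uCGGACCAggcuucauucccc
miR166 site of GRMZM2G178102 and GRMZM2G003509: UUggGaugaagccugguccgG
miR166 site of rld2 and GRMZM2G469551: CUggGaugaagccugguccgG
miR396a: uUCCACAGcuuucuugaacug
miR396 site of GRMZM2G124566, GRMZM2G067743 and GRMZM2G105335: ccguucaagaaagccuguggaa
miR164a: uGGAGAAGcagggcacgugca
miR164 site of cuc2: AgcUcgugcccugcuucucca
miR156a: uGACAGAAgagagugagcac
miR156 site of sbp29: AugcucUcucucuucuguca
miR160a: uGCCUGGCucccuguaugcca
miR160 site of GRMZM2G081406: AgCcauacagggagccaggca
miR394a: uUGGCAUUcuguccaccucc
miR394 site of GRMZM2G119650: ggagguggacagaaugccaa

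Of the 550 gene models called, 473 had a more positive *dcl1-2* effect in P3 than in the CZ (2.02% of those tested) and 77 a more negative one (0.328%). Among the 473, the estimate was below 0 in the CZ and above 0 in P3 in 421, above 0 in both tissues in 34 and below 0 in both in 18. Among the 77, it was above 0 in the CZ and below 0 in P3 in 74. Most of these opposite signs rest on point estimates, since the effects within single tissues often missed the threshold. Of the 473, the P3 effect alone passed its own test in 146, the CZ effect alone in 145, both with opposite signs in 12, both with the same sign in 4 and neither in 166. Of the 77, the P3 effect alone passed in 37, the CZ effect alone in 8 and neither in 32. Across all gene models tested, 316 were higher and 90 lower in *dcl1-2* P3, 1.35% and 0.383%, and 39 were higher and 195 lower in *dcl1-2* CZ, 0.166% and 0.831%. In either direction these are 1.73% in P3 and 0.997% in the CZ. The 2 mutant libraries lay on 1 side of both wild-type libraries in 48.8% of all gene models tested in P3 and in 38.8% in the CZ, so that such a separation is common in these data.

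**Figure D2:**
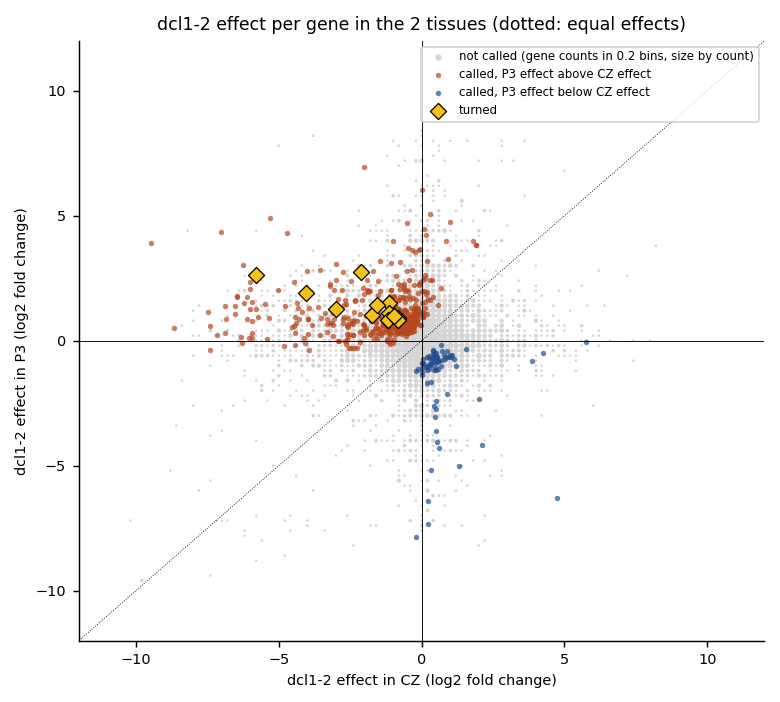
Log2 fold change of *dcl1-2* over wild type in the CZ (x axis) and in P3 (y axis). Orange and blue points are the 473 and 77 gene models called, yellow diamonds the 12 turned genes, grey points all others counted in bins of 0.2, and most orange points lie at the upper left, with a CZ estimate below 0 and a P3 estimate above 0.

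The count rested on few libraries. Leaving out 1 library at a time gave between 76 calls, without *dcl1-2* P3 library 2, and 905, without wild-type CZ library 2, and 149 without wild-type P3 library 2. The share with the more positive effect in P3 was 86.0%, and between 84.5% and 90.5% in these 8 fits. Scaling by total counts alone, which shifts the median difference of all genes to -0.10 on the log2 scale, gave 322 more positive and 103 more negative calls, a share of 75.8%.

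Level in the other tissue moved with the calls. The CZ mean over 4 libraries was under 10% of the P3 mean in 12.6% of the gene models tested, in 37.8% of the 473 and in 61.4% of the 145 of these in which only the CZ effect passed. In those 145 the median level was 5.99 RPM in wild-type CZ, 1.20 RPM in *dcl1-2* CZ, 44.1 RPM in wild-type P3 and, in the mutant, 57.7 RPM in P3. Where only the P3 effect passed, the medians of wild type and *dcl1-2* were 24.5 and 21.5 RPM in the CZ and 24.3 and 68.1 RPM in P3, and the CZ was under 10% of P3 in 18.5%. P3-abundant genes were taken as those with a P3 mean of 10 RPM or more and a CZ mean under 10% of it. A low CZ percentage was thus set by the choice of genes, and only its differences between CZ libraries can be read. Those not called were at a median of 4.86% and 3.26% of their P3 level in wild-type CZ, and at 3.16% and 3.08% in *dcl1-2* CZ. This set leaves out called genes, among them some whose CZ level fell in *dcl1-2*. Over all 982 such genes, called or not, the medians were 5.10% and 3.45% in wild-type CZ and 2.79% and 2.69% in *dcl1-2* CZ. The part of carried-over leaf cells or RNA in the CZ effects was not tested. Restricting the count, after the values were seen, to the 14525 gene models with a mean of 5 RPM or more in each tissue gave 349 calls, 2.40%, of which 291 were more positive in P3.

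Turned genes were those called for the difference whose *dcl1-2* effects had opposite signs, each past its own test. There were 12, or 0.0511% of those tested, and all 12 fell in *dcl1-2* CZ and rose in *dcl1-2* P3. No gene turned the other way. Their estimates kept opposite signs in all 21 alternative settings, and the difference passed in all 21 for 10 of the 12. The turned status itself, which needs all 3 tests, was less stable: each of the 12 kept it in 1 to 4 of the 8 fits with a library left out, *pin1a* in 2. Of the 12, limma-voom kept 5 and limma-trend on the deposited RPM 3. No gene met all 3 tests without *dcl1-2* P3 library 2, and 76 did without wild-type CZ library 2.

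*pin1a* (GRMZM2G098643, chr9:3650766-3654174), an efflux carrier that moves auxin towards sites of organ and vein initiation, was among them. In the CZ it stood at 115 and 104 RPM in wild type against 56.5 and 67.3 RPM in *dcl1-2*. In P3 it stood at 73.2 and 62.9 RPM in wild type against 104 and 122 RPM in *dcl1-2*. The genotypes did not overlap in either tissue. Wild type had more *pin1a* in the CZ than in P3, and *dcl1-2* had less. Tissue and library layout cannot be told apart in that comparison of levels. The log2 fold change was -0.84 in the CZ (adjusted p = 0.0233) and 0.81 in P3 (adjusted p = 0.0207), and the difference was 1.66 (SE 0.23, adjusted p = 0.00324, all from edgeR). Another gene model, GRMZM2G398650, overlaps it and could share its reads.

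GRMZM2G040689 (chr9:94474143-94476046), to which no gene name was matched, had a wider difference. It fell from 44.4 and 15.1 RPM to 2.06 and 1.59 RPM in the CZ and rose from 49.0 and 41.6 RPM to 162 and 163 RPM in P3. The wild-type CZ libraries were far apart from each other and still lay above both mutant libraries. The log2 difference was 5.96 (SE 0.53, edgeR adjusted p = 3.41e-04). GRMZM2G064852 moved from 15.6 and 10.3 RPM to 2.67 and 3.33 RPM in the CZ, and from 2.48 and 5.80 RPM to 19.8 and 31.8 RPM in P3, a difference of 4.87 (SE 0.57, edgeR adjusted p = 0.00163). Its level was higher in the CZ than in P3 in wild type, and lower in *dcl1-2*.

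*frk2* (GRMZM2G051677), a fructokinase of sugar metabolism, was a leaf-rich turned gene. It fell from 42.9 and 23.7 RPM to 16.2 and 14.6 RPM in the CZ and rose from 358 and 292 RPM to 667 and 669 RPM in P3. The difference was 2.25 (SE 0.30, edgeR adjusted p = 0.00293). *smt2* (GRMZM2G075701), named for sterol methyltransferase, a step of sterol synthesis, went from 27.4 and 22.2 RPM to 9.21 and 5.75 RPM in the CZ and from 40.7 and 46.5 RPM to 68.9 and 97.2 RPM in P3, a difference of 2.77 (SE 0.34, edgeR adjusted p = 0.00169). In each of these genes the mutant libraries lay outside the wild-type ones in both tissues.

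The other turned genes had no matched name that gives a role. GRMZM2G029912, GRMZM2G076049, GRMZM2G067053, GRMZM2G327260 and GRMZM2G143883 had means of 5.30 to 51.0 RPM in wild-type CZ and 40.7 to 166 RPM in wild-type P3, and differences of 1.73 to 3.02. GRMZM2G087267 (0.981 RPM in wild-type against 0.119 RPM in *dcl1-2* CZ) and GRMZM2G152975 (0.362 RPM and no count) were at trace level in the CZ, and had differences of 4.26 and 8.43. The last depends on the prior count of the fit, and the call of GRMZM2G152975 was lost without *dcl1-2* P3 library 2 (adjusted p = 0.0584 from edgeR). In 5 of the 12 turned genes, 41.7%, the CZ mean was under 10% of the P3 mean.

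**Figure D3:**
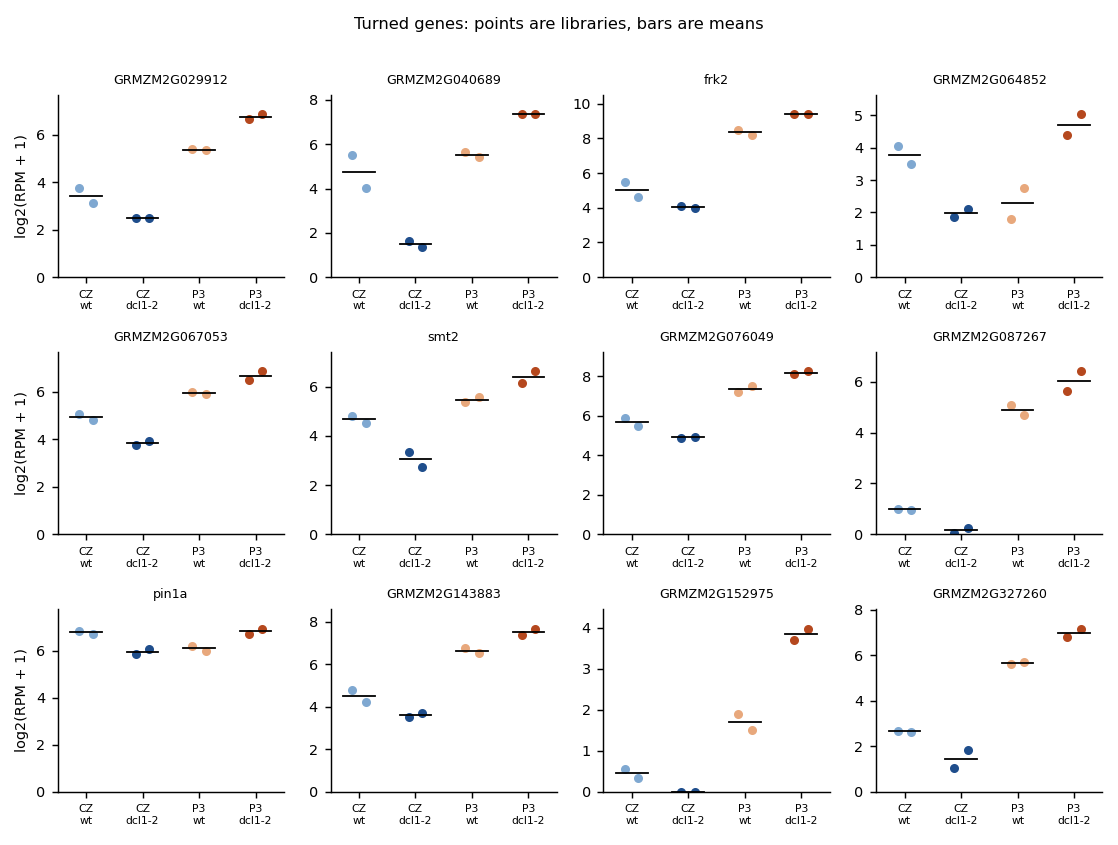
Level of the 12 turned genes as log2(RPM + 1) in each library (points) with the mean of the 2 libraries (bars), by tissue and genotype. In all 12 the *dcl1-2* points lie below the wild-type points in the CZ and above them in P3. The genotypes did not overlap in either tissue in 75.5% of all 473 gene models called more positive in P3.

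Among the 107 miRNA targets tested, 11 passed the test of the difference, 10 with a more positive effect in P3 and 1 with a more negative one. This was 10.3% of the list, beside 2.34% of all gene models. Among all 550 calls, 86.0% were more positive in P3. The median difference of the 107 was 0.39 and that of all gene models 0.01 on the log2 scale. In P3 14 targets rose and 0 fell, whereas in the CZ 1 rose and 2 fell. Of all gene models, 1.35% rose and 0.383% fell in P3, and 0.166% rose and 0.831% fell in the CZ. The number of called targets was 4 to 16 under the other settings and fell to 1 without *dcl1-2* P3 library 2. The study drew up the list from prediction with cleavage evidence in the apex, and by homology to such targets.

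The class III HD-ZIP genes, miR166 targets that specify adaxial leaf fate and promote meristem activity, held 4 of the 10. These were 4 of the 8 miR166 targets tested, beside 2.34% of all gene models. The uncalled GRMZM2G109987, GRMZM2G066341 and GRMZM2G029692 had differences of 0.36, 0.59 and 1.24 (adjusted p = 0.406, 0.156 and 0.572 from edgeR). The remaining miR166 target, AC187157.4_FG005, had no count in the CZ and was not called. GRMZM2G178102 (chr3:123263423-123270240) stood at 105 and 101 RPM in wild-type P3 against 331 and 271 RPM in *dcl1-2* P3. In the CZ the values were 309.7 and 267 RPM in wild type against 199 and 307 RPM in *dcl1-2*. The genotypes were apart in P3 and overlapped in the CZ. The difference was 1.84 (SE 0.26, edgeR adjusted p = 0.00349), and it passed in each of the 8 fits with 1 library left out.

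GRMZM2G003509 rose from 53.0 and 48.3 RPM to 104 and 103 RPM in P3 and was at 245 and 189 RPM in wild-type against 196 and 183 RPM in *dcl1-2* CZ. *rld2* (GRMZM2G042250) rose from 62.4 and 75.2 RPM to 119.7 and 108 RPM in P3 and lay at 202 and 222 RPM against 175 and 208 RPM in the CZ. GRMZM2G469551 rose from 48.6 and 43.4 RPM to 88.4 and 89.2 RPM in P3 and stayed between 18.3 and 19.7 RPM in the CZ. In wild type the last had its higher level in P3, and GRMZM2G003509 and *rld2* in the CZ. Differences were 1.32, 0.99 and 0.99 (adjusted p = 0.00711, 0.0243 and 0.0453 from edgeR). Without *dcl1-2* P3 library 2 they gave adjusted p = 0.0524 for GRMZM2G003509 and 0.192 for GRMZM2G469551. *rld2* lost its call in 5 of the 8 such fits, with an adjusted p of at most 0.107, and GRMZM2G469551 in all 8.

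Growth-regulating factors, miR396 targets that promote cell proliferation in young leaves, were called in 3 cases with unlike patterns, of 16 miR396 targets tested (18.8%, beside 2.34% of all gene models). *grf9* (GRMZM2G124566) stood at 2.59 and 2.67 RPM in wild-type P3 against 12.1 and 48.5 RPM in *dcl1-2* P3, while the 4 CZ values were 13.6 to 16.7 RPM. Its mutant P3 libraries were far apart and both lay above the wild type. The difference was 3.69 (SE 0.69, edgeR adjusted p = 0.0155), and 4 of the 8 leave-outs lost it, up to adjusted p = 0.0946 without wild-type P3 library 2. *grf11* (GRMZM2G067743) rose from 47.7 and 51.9 RPM to 94.2 and 119 RPM in P3 and overlapped in the CZ, at 14.4 to 20.05 RPM. *grf3* (GRMZM2G105335) instead fell in the CZ, from 12.4 and 6.72 RPM to 2.95 and 3.73 RPM, and was at 54.0 and 56.7 RPM against 58.1 and 69.8 RPM in P3. The latter pair had differences of 1.27 and 1.83 (adjusted p = 0.0258 and 0.0215 from edgeR), lost in 6 and 4 of the 8 leave-outs, with an adjusted p of up to 0.175 and 0.127 without *dcl1-2* P3 library 2. All 3 carry the identical site shown above.

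The miR164 targets held 1 call in 3 tested (33.3%, beside 2.34% of all gene models). This was *cuc2* (GRMZM2G393433), a NAC gene of organ boundaries cut by miR164, and a CZ-rich target. It rose from 10.03 and 9.97 RPM to 26.1 and 33.6 RPM in P3, still below its 87.9 to 125 RPM in the CZ, where the genotypes overlapped. The difference was 1.45 (SE 0.26, edgeR adjusted p = 0.0146), lost in 3 leave-outs, up to adjusted p = 0.0982 without *dcl1-2* P3 library 2. The miR156 and miR160 targets held 1 call each, in 17 (5.88%) and 6 (16.7%) tested, beside 2.34% of all gene models. Their median differences were 0.46 and -0.49, with 12 and 2 above 0. *sbp29* (GRMZM2G067624), an SBP-box gene of the miR156 module of phase change, rose from 39.9 and 33.3 RPM to 73.5 and 89.1 RPM in P3 and overlapped in the CZ at 4.65 to 11.5 RPM. GRMZM2G081406, a miR160 target of the ARF repressor type, was at 9.62 and 10.3 RPM against 16.0 and 24.8 RPM in P3 and at 20.9 and 16.9 RPM against 13.8 and 10.9 RPM in the CZ. Their differences were 1.86 and 1.76 (adjusted p = 0.0251 and 0.0373 from edgeR), each lost in 6 of the 8 leave-outs, with adjusted p up to 0.150 and 0.198.

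Of the 5 miR159 targets tested, 0 were called and 0 had a difference above 0, with a median of -1.08. The 1 called target with a more negative effect in P3 was GRMZM2G119650 (chr3:158566844-158570457), a target of miR394, which in Arabidopsis regulates an F-box gene of stem cell competence. It was at 28.9 and 38.0 RPM in wild-type CZ and 58.9 and 76.4 RPM in *dcl1-2* CZ. In P3 the values were 35.1 and 55.1 RPM against 25.4 and 30.8 RPM. The mutant libraries were thus the higher ones in the CZ and the lower ones in P3, although neither tissue passed alone (adjusted p = 0.0557 and 0.251). The difference was -1.57 (SE 0.32, edgeR adjusted p = 0.0243), lost in 5 leave-outs, up to adjusted p = 0.110 without wild-type P3 library 2. Among the miRNA pathway genes, 1 of 46 was called (2.17%, beside 2.34% of all gene models), an *AGO10* gene (GRMZM2G079080) whose Arabidopsis counterpart sequesters miR166. It fell from 44.7 and 49.1 RPM to 20.3 and 23.6 RPM in the CZ. In P3 it was at 99.0 and 83.8 RPM against 74.9 and 80.6 RPM, without overlap and with an effect that did not pass (adjusted p = 0.746). Its difference of 0.97 (SE 0.23, edgeR adjusted p = 0.0495) lay at the threshold and was lost in all 8 leave-outs.

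**Figure D4:**
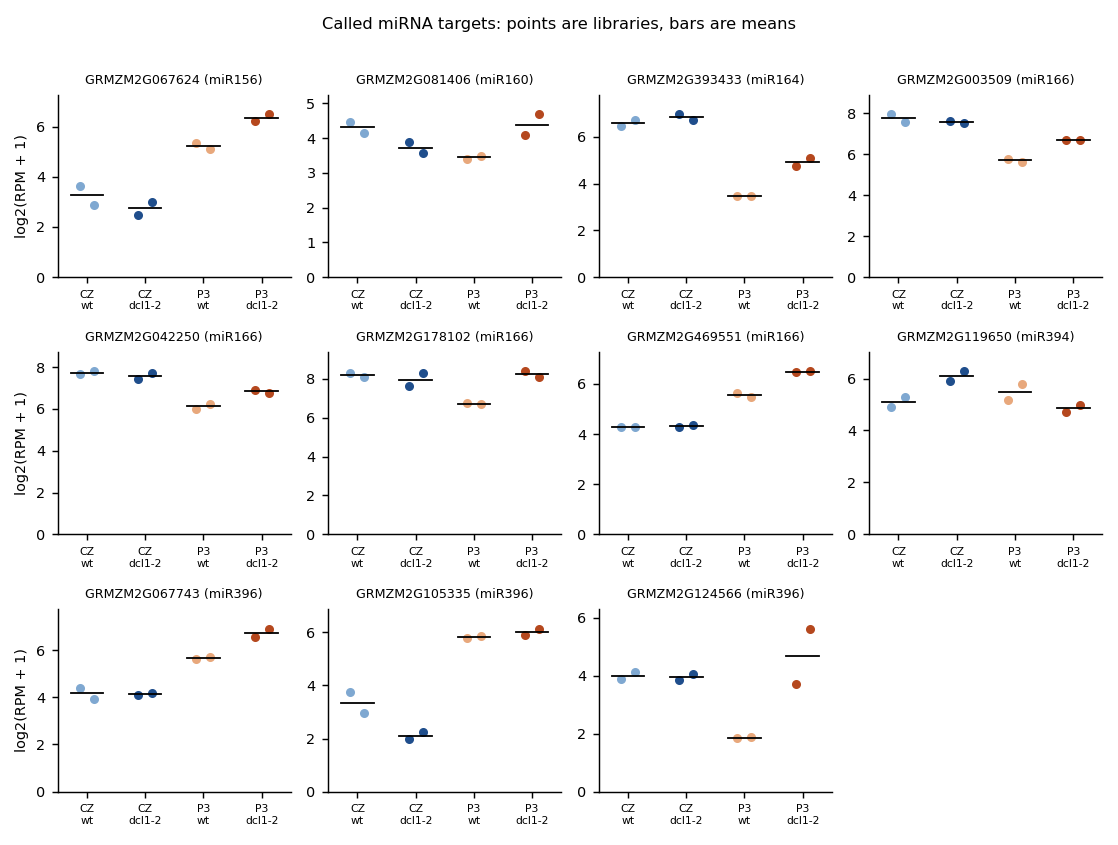
Level of the 11 called miRNA targets as log2(RPM + 1) in each library (points) with the mean of the 2 libraries (bars), the miRNA family in parentheses. In 10 panels the *dcl1-2* points lie above the wild-type points in P3, and in GRMZM2G119650 they lie below. The P3 genotypes did not overlap in 89.0% of all 473 gene models called more positive in P3, and in 98.7% of the 77 called more negative.

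Of 31 jasmonate and wound genes tested, 6 were called (19.4%), beside 2.34% of all gene models. All 6 had the more positive effect in P3, as did 86.0% of all 550 calls. The median difference was 0.84, and it was 0.50 without wild-type CZ library 1, 0.54 without *dcl1-2* P3 library 1 and 0.44 without a filter on low counts. In P3 4 rose and 0 fell, and 0 changed in the CZ. Of all gene models, 1.35% rose in P3 and 0.997% changed in the CZ. Other settings gave 3 to 8 calls and leave-outs 2 to 7, the fewest without *dcl1-2* P3 library 2, none of them with a more negative effect.

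*lox1* (GRMZM2G156861), a lipoxygenase that oxidises polyunsaturated fatty acids, stood at 3.62 and 3.13 RPM in wild-type P3 against 52.0 and 49.3 RPM in *dcl1-2* P3. In the CZ it was at 7.91 and 2.78 RPM in wild type against 2.75 and 2.69 RPM in *dcl1-2*. The difference was 4.97 (SE 0.57, edgeR adjusted p = 0.00154) and passed in all 21 other fits. The model spans chr3:168695539-168839001 and contains another, GRMZM2G458554, which had a fitted difference of 11.41, 1.75 and 0 RPM in wild-type CZ and no count in *dcl1-2* CZ. Its call was lost in 7 of the 8 leave-outs, with an adjusted p of 1.00 from edgeR without wild-type CZ library 1. Reads of this pair may be shared.

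*aoc* (GRMZM2G077316), the allene oxide cyclase of jasmonate synthesis, rose from 27.1 and 37.3 RPM to 83.5 and 127 RPM in P3 and lay at 3.88 to 6.89 RPM in the CZ. Its difference was 2.26 (SE 0.35, adjusted p = 0.00711, and 0.0584 without *dcl1-2* P3 library 2, from edgeR). *lox11* (GRMZM2G009479) went from 113 and 124 RPM to 175 and 158 RPM in P3 and from 11.8 and 11.2 RPM to 7.27 and 7.29 RPM in the CZ, with a difference of 1.26 (SE 0.21, edgeR adjusted p = 0.00847). *lox11* did not pass within either tissue (adjusted p = 0.0531 and 0.0555). The remaining calls were less stable. *myc7*, a MYC2-type regulator of jasmonate responses, *lox5* and *lox10*, the green-leaf volatile and wound lipoxygenase, had differences of 1.81, 2.59 and 6.78 (adjusted p = 0.0352, 0.0403 and 0.0488 from edgeR) and lost them in 4, 6 and 7 leave-outs. *lox10* was at 2.08 and 0 RPM in wild-type CZ, and without the first of these its difference was -0.41 (adjusted p = 0.884).

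**Figure D5:**
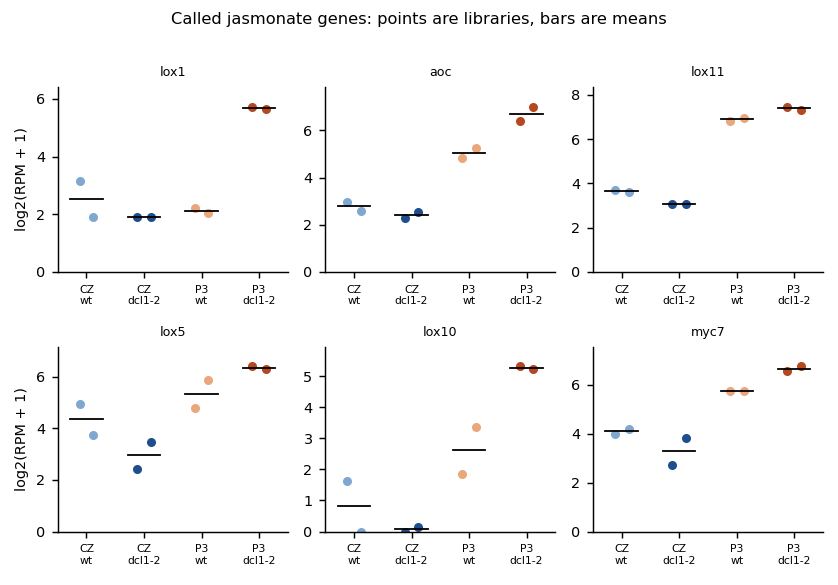
Level of the 6 called jasmonate and wound genes as log2(RPM + 1) in each library (points) with the mean of the 2 libraries (bars). In P3 the *dcl1-2* points lie above the wild-type points in all 6 panels, and in *lox1* the rise is from 3.62 and 3.13 to 52.0 and 49.3 RPM. The P3 genotypes did not overlap in 89.0% of all 473 gene models called more positive in P3.

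Auxin genes held 5 calls in 46 tested (10.9%, beside 2.34% of all gene models). All 5 were more positive in P3, as were 86.0% of all 550 calls. In the CZ 0 rose and 5 fell, beside 0.831% of all gene models that fell there. In P3 1 rose and 0 fell, beside 1.35% of all gene models that rose there. The median difference was 0.32, and 0.13 without wild-type CZ library 1. Besides *pin1a*, its paralog *pin1d* (GRMZM2G171702) fell from 157 and 104 RPM to 58.6 and 52.1 RPM in the CZ and was at 186 and 147 RPM against 224 and 237 RPM in P3. The difference was 1.80 (SE 0.26, edgeR adjusted p = 0.00481), held in all 8 leave-outs. *aux18*, an Aux/IAA repressor gene, fell from 11.1 and 16.0 RPM to 6.02 and 4.20 RPM in the CZ and had a difference of 1.72 (adjusted p = 0.0283 from edgeR). *bif2*, the kinase gene barren inflorescence2 that acts with PIN proteins, was at 1.14 and 1.16 RPM against 4.29 and 6.10 RPM in P3 and 5.90 and 4.77 RPM against 2.42 and 3.69 RPM in the CZ, a difference of 3.08 (adjusted p = 0.0395 from edgeR). *arf13*, an auxin response factor, had 0.98 (adjusted p = 0.0397 from edgeR). The calls of *aux18*, *bif2* and *arf13* were lost in 5, 7 and 6 leave-outs, up to adjusted p = 0.129, 0.183 and 0.197 without *dcl1-2* P3 library 2. Other settings gave 3 to 10 calls in the list, and leave-outs 2 to 7.

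The cell cycle and histone list, which was drawn up by symbol and also takes in tubulins and the kinesins named below, held 5 calls in 41 tested (12.2%, beside 2.34% of all gene models), all more positive in P3, with 2 that fell in the CZ and 0 that changed in P3. Beside the 2 that fell in the CZ, 0.831% of all gene models fell there. Among all 550 calls, 86.0% were more positive in P3. The median difference of the list was 0.42. *tub1* (GRMZM2G164696), a beta-tubulin, stood at 636 and 627 RPM in wild-type CZ and 183 and 224 RPM in *dcl1-2* CZ, and at 517 and 440.3 RPM against 477 and 475 RPM in P3. The genotypes were apart in the CZ and overlapped in P3. The difference was 1.73 (SE 0.19, edgeR adjusted p = 0.00129) and passed in all 21 other fits. *tub1* lies at chr1:2037790-2040079, on the chromosome of *DCL1*, and a part of alleles linked to *dcl1-2* was not tested.

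A cyclin gene, *cyc1*, was at 82.6 and 54.8 RPM against 43.8 and 37.1 RPM in the CZ and 75.8 and 71.5 RPM against 112 and 101 RPM in P3, and neither tissue passed alone. A histone H2B gene, *his2b2*, fell from 355 and 484 RPM to 267 and 210.3 RPM in the CZ. *krp6* and *krp13*, kinesins of microtubule transport, had differences of 0.90 and 0.83. For *cyc1*, *his2b2*, *krp6* and *krp13* the adjusted p was 0.0158, 0.0403, 0.0246 and 0.0495 from edgeR, and the calls were lost in 4, 6, 6 and 8 leave-outs. Other settings gave 3 to 14 calls in the list and leave-outs 1 to 5, the fewest without *dcl1-2* CZ library 2.

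Defence genes held 5 calls in 43 tested (11.6%, beside 2.34% of all gene models). All 5 were more positive in P3, as were 86.0% of all 550 calls. The median difference of the list was 0.54, and -0.08 without wild-type CZ library 1. *bx9*, a glucosyltransferase, and *bx5*, a cytochrome P450, act in the synthesis of benzoxazinoids, the defensive compounds of maize seedlings. *bx9* fell from 32.5 and 24.7 RPM to 10.7 and 15.4 RPM in the CZ and was at 170.2 and 146 RPM against 193 and 204 RPM in P3, a difference of 1.56 (SE 0.27, edgeR adjusted p = 0.0101). *bx5* instead rose in P3, from 82.1 and 89.5 RPM to 255 and 248 RPM. In the CZ its genotypes overlapped and its estimate was below 0, which adds to its difference of 2.85 (SE 0.56, edgeR adjusted p = 0.0215). The other calls were glutathione transferases, *gst3*, *gst41* and *gst1*, with differences of 1.70, 2.84 and 0.88 (adjusted p = 0.00767, 0.0204 and 0.0453 from edgeR). *gst41* rose in P3 from 18.2 and 24.8 RPM to 42.2 and 128 RPM. The calls of *bx9*, *bx5*, *gst3*, *gst41* and *gst1* were lost in 2, 6, 1, 4 and 7 leave-outs, and without *dcl1-2* P3 library 2 no gene of the list was called.

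Cell wall genes held 2 calls in 25 (8.00%, beside 2.34% of all gene models), with 0 calls in 4 of the leave-outs and 8 without wild-type CZ library 2. *expb8*, a beta-expansin that loosens walls, fell from 56.7 and 45.7 RPM to 14.7 and 27.4 RPM in the CZ and was at 185 and 139.8 RPM against 206 and 189 RPM in P3, a difference of 1.66 (adjusted p = 0.0242 from edgeR, lost in 4 leave-outs). *csld1*, a cellulose synthase-like gene, had 1.15 (adjusted p = 0.0309 from edgeR, lost in 7). *ckx12* (GRMZM2G008792), a cytokinin oxidase that degrades cytokinin, was the 1 call among 22 cytokinin and gibberellin genes (4.55%, beside the same 2.34%). It fell from 2.968 and 1.503 RPM to 0.162 and 0.119 RPM in the CZ and was at 19.8 and 17.0 RPM against 37.2 and 48.9 RPM in P3. The difference of 5.26 (SE 0.59, edgeR adjusted p = 0.00129) passed in all 21 other fits.

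Transcription factors of development held 8 calls in 190 (4.21%, beside 2.34% of all gene models). All 8 were more positive in P3, as were 86.0% of all 550 calls. In P3 8 rose and in the CZ 3 fell, beside 1.35% and 0.831% of all gene models. Other settings gave 3 to 29 calls and leave-outs 2 to 18. *bzip112* (GRMZM2G103647) rose from 1.55 and 2.20 RPM to 35.5 and 29.7 RPM in P3 and stayed at 2.41 to 3.84 RPM in the CZ, where the genotypes overlapped. Its difference was 4.04 (SE 0.51, edgeR adjusted p = 0.00213). *bhlh105* (GRMZM2G082586) behaved otherwise, at 2.04 and 1.16 RPM against 0.0404 and 0 RPM in the CZ and 48.5 and 47.3 RPM against 45.3 and 52.8 RPM in P3, a difference of 6.06 (SE 0.73, edgeR adjusted p = 0.00169). The calls of *bzip112* and *bhlh105* held in all 8 leave-outs. *ereb26* was the reverse case, with 147 to 172 RPM in the CZ, no count in wild-type P3 and 0.55 and 0.387 RPM in *dcl1-2* P3, at least 2.83-fold higher than 3 counts over the wild-type group. *bhlh36*, *bhlh33*, *myb103* and *ereb26* lost their calls in 2, 6, 7 and 7 leave-outs.

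Several lists held 0 to 2 calls. None of the 9 class I KNOX genes, 9 epidermal genes, 16 heat shock genes or 29 ribosomal protein genes tested was called by edgeR. At an unadjusted p under 0.05 they numbered 2, 4, 2 and 9, and DESeq2 called 0, 2, 0 and 2. In other fits 0 to 4 epidermal, 0 to 3 heat shock and 0 to 3 ribosomal protein genes passed, and 0 KNOX genes did. Epidermal genes had a median difference of 0.67, with 8 of 9 above 0. Of the meristem size genes 1 of 16 was called (6.25%) and of the *tas3* transcripts 2 of 7 (28.6%), beside 2.34% of all gene models. Neither of 2 vascular genes was called. The leaf polarity and photosynthesis calls below are 5.26% and 5.56% of their lists. Leaf polarity genes had 1 call in 19, *rld2*, but a median difference of 1.04, with 17 of 19 above 0. The 11 leaf primordium markers given above are among these 19. Their lower sum in *dcl1-2* CZ is therefore not a separate observation. The median difference of the 19 was 0.39 without wild-type CZ library 1, 2.25 without *dcl1-2* CZ library 2 and 0.25 with limma-trend. Heat shock genes had a median difference of -0.71, which was -1.23 without wild-type CZ library 1 and -0.21 without *dcl1-2* CZ library 1. Photosynthesis genes had 1 call in 18, *ppdk2*, a pyruvate phosphate dikinase, which was at 1.71 and 1.46 RPM against 8.24 and 4.64 RPM in the CZ and 4.03 and 2.67 RPM against 0.991 and 0.29 RPM in P3, a difference of -4.32 (SE 0.90, edgeR adjusted p = 0.0261, lost in 4 leave-outs).

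The largest positive differences of named genes, 8.25 to 11.41, came from gene models with no count in either *dcl1-2* CZ library. GRMZM5G895899 was at 1.42 and 0.939 RPM in wild-type CZ, at least 19.9-fold above the limit of 3 counts over the *dcl1-2* CZ group, and at 7.34 and 6.49 RPM against 16.6 and 12.7 RPM in P3. *tcp7* (GRMZM2G035944), a TCP transcription factor, was at 0.659 and 0.902 RPM in wild-type CZ, at least 12.9-fold above that limit, and at 6.83 and 4.98 RPM against 17.2 and 11.7 RPM in P3. GRMZM2G169681 was at 4.42 and 0.977 RPM, at least 46.8-fold above it. Of the 10, GRMZM2G458554, GRMZM2G018424, GRMZM2G159149 and AC203966.5_FG005 also had no count in wild-type CZ library 2. Each of these 4 lost its call in 7 of the 8 leave-outs, and without wild-type CZ library 1 each had an adjusted p of 1.00 from edgeR. The fitted differences of such genes depend on the prior count. Of the 473, 33 had no count in *dcl1-2* CZ, beside 749 of all 23469 tested.

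Of the 550 calls, 51 passed in all 21 other fits, 45 of them more positive in P3. Among these was GRMZM5G868730 (chr4:196987297-196988868), which stood at 26.3 and 24.9 RPM in wild-type P3 against 161 and 268 RPM in *dcl1-2* P3. In the CZ it was at 17.7 and 15.2 RPM in wild type against 9.57 and 10.1 RPM in *dcl1-2*. The difference was 3.92 (SE 0.31, edgeR adjusted p = 1.86e-04). GRMZM2G054123 rose from 51.6 and 42.0 RPM to 232 and 219 RPM in P3 and stayed at 55.0 to 69.9 RPM in the CZ, a difference of 2.40 (SE 0.23, edgeR adjusted p = 4.87e-04). GRMZM2G011523 fell from 82.2 and 74.1 RPM to 17.5 and 10.98 RPM in the CZ and was at 334 and 427 RPM against 621 and 551 RPM in P3, a difference of 3.19 (SE 0.26, edgeR adjusted p = 1.86e-04), and it overlaps GRMZM5G825287.

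Of the 77 genes with a more negative effect in P3, GRMZM2G105348 (chr5:150189676-150191211) was nearly absent from the CZ. It fell from 130.2 and 88.9 RPM to 5.95 and 6.49 RPM in P3 and lay at 0.826 to 1.49 RPM in the CZ, a difference of -4.58 (SE 0.43, edgeR adjusted p = 4.21e-04). GRMZM2G024718, GRMZM2G428184 and GRMZM2G105415 were CZ-rich and nearly lost from *dcl1-2* P3. They fell from means of 5.52, 9.57 and 14.1 RPM in wild-type P3 to 0.269, 0.704 and 1.57 RPM, while in the CZ their means were 14.9, 22.3 and 42.8 RPM in wild type against 23.2, 32.2 and 60.4 RPM in *dcl1-2*. Their differences were -4.91, -4.12 and -3.53 (adjusted p = 0.00213, 0.00324 and 0.00129 from edgeR), and these calls held in all 8 leave-outs. *gad* (GRMZM2G017110), a glutamate decarboxylase of GABA synthesis, rose in the CZ, from 16.8 and 28.5 RPM to 60.2 and 76.1 RPM, and was at 36.7 and 40.5 RPM against 22.6 and 35.5 RPM in P3, where the effect did not pass (adjusted p = 0.655). Its difference was -1.88 (SE 0.38, edgeR adjusted p = 0.0224, lost in 5 leave-outs).

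The called genes were spread over the genome. The share called was 1.58% to 3.18% on the 10 chromosomes, highest on chromosome 1. Within 20 Mb of *DCL1* on chromosome 1 it was 25 of 508, 4.92%, and *tub1* and GRMZM2G105415 (chr1:4715515-4720901) were among these. A part of alleles that came with *dcl1-2* was not tested. Of the 550, 165 overlap another gene model in the table, so that their reads cannot be told apart from those of the neighbour without knowing how such reads were counted.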

How the data were processed

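Per the labels and the study's methods, RNA from captured tissue was amplified and sequenced, and the tools named in the submitters' processing notes include cutadapt 1.13, Trimmomatic, TopHat and Bowtie 1.1.2. The authors deposited raw read counts per gene model of B73 RefGen_v3, which carried all tests, with 1 blank cell read as 0. A deposited RPM signal for each library, scaled by the authors, served in 1 alternative only, and the small RNA table was not used. Each group had 2 replicates, which the study's methods call biological and the labels only number.

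Counts were scaled by TMM and tested in R 4.3.3 by edgeR 4.0.16 (quasi-likelihood), with 1 mean per group over all 8 libraries and Benjamini-Hochberg adjustment over all rows tested. Alternatives used other scalings and filters, robust spread, a replicate block, DESeq2 1.42.0, limma 3.58.1 and each library left out. The scripts were tested on simulated data. Names came from RefSeq (assembly Zm-B73-REFERENCE-NAM-5.0), with 18364 gene models paired with 1 name and 520 with several, and coordinates are those of RefGen_v3. Named genes were called for the difference, reached 5 RPM in a group, had genotypes apart in 1 tissue or more, and were no *tas3* transcript or precursor overlap. From these the rule took the 10 highest and 10 lowest differences, up to 10 turned genes, up to 4 called members of each list by smallest p, and *DCL1*; only some of the highest and lowest are described. Further called targets and list members, turned genes, genes at 5 RPM or more in both tissues, genes called in every alternative and genes near *DCL1* were added after their values were seen. Members and lists were chosen with earlier results of these data known.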

Additional observations from a re-analysis of the deposited data

Results flagged for a closer look

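The results here are those in which the *dcl1-2* effect differed between the CZ and P3 by the interaction term of edgeR. They were 550 gene models, 12 of them with effects of opposite sign past the test in each tissue. The differences of the turned genes, P3 minus CZ on the log2 scale, were 8.43 for GRMZM2G152975, 5.96 for GRMZM2G040689, 4.87 for GRMZM2G064852 and 4.26 for GRMZM2G087267. They were 3.02 for GRMZM2G327260, 2.77 for GRMZM2G075701 (*smt2*), 2.62 for GRMZM2G029912 and 2.25 for GRMZM2G051677 (*frk2*). The smallest were 1.99 for GRMZM2G067053, 1.95 for GRMZM2G143883, 1.73 for GRMZM2G076049 and 1.66 for GRMZM2G098643 (*pin1a*). By list, the difference passed in 11 of 107 miRNA targets, 5 of 46 auxin genes, 6 of 31 jasmonate and wound genes, 5 of 43 defence genes and 5 of 41 cell cycle and histone genes. These are 10.3%, 10.9%, 19.4%, 11.6% and 12.2%, beside 2.34% of all gene models.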

How the results depend on the processing

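With 2 libraries a group, the number of calls depended on single libraries. Leaving out 1 library gave 76 to 905 calls of the difference, 67 to 772 more positive and 9 to 133 more negative in P3, 0 to 76 turned genes, 87 to 591 calls in the CZ and 66 to 653 in P3. Without a filter on low counts there were 1573 calls, 1220 more positive and 353 more negative, 176 turned, 1073 in the CZ and 1246 in P3. DESeq2 gave 1014 calls, 819 and 195 by direction, 61 turned, 534 in the CZ and 861 in P3. A replicate block within each tissue gave 939 calls, 782 and 157 by direction, 57 turned, 469 in the CZ and 635 in P3. A replicate block across tissues gave 494 calls. Deviations of same-numbered libraries correlated at 0.06 in the CZ and 0.01 in P3. Such a correlation over all genes cannot decide whether the replicate numbers pair the samples. limma-voom gave 408 calls of the difference, among them 62.4% of the 550, and 10 turned genes, 5 of them among the 12, with 82 calls in the CZ and 939 in P3. limma-trend on the deposited RPM gave 325 calls of the difference, 232 more positive, 3 turned, 70 in the CZ and 923 in P3. Genes at 5 RPM or more in both tissues, an alternative chosen after seeing the data, gave 349 calls, 291 more positive, and 122 in the CZ. The cause of these shifts was not tested. Of the named genes, *lox10* (GRMZM2G015419) reversed, at -0.41 without wild-type CZ library 1, and leave-outs of it reached 10.01. In 1974 comparisons of 94 named genes with an alternative, 448 lost the call, 305 of them with a library left out. Depth limits genes at trace level in 1 tissue, where 3 counts over a group equal 0.0527 to 0.164 RPM.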
